A study of Homo sapiens with 6 samples.

Results

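Collagen chains are modified in the endoplasmic reticulum by a small set of enzymes, and 10 of their genes were examined here out of 58735 genes in the table: the prolyl 4-hydroxylase subunits P4HA1, P4HA2, P4HA3 and P4HB, the lysyl hydroxylases PLOD1, PLOD2 and PLOD3, the lysyl oxidases LOX and LOXL2, and the collagen chaperone SERPINH1. The genes were listed by function, but the family was chosen from the siPSCA against NC contrast of these same libraries, in which P4HA1 had the largest fall of all 13796 genes tested. Its values in that contrast are therefore given as a description, with no p-value, and the counts of members past a threshold below are tallies that carry no evidence. HCT116 is a human colorectal carcinoma line, and HCT116SCs are the CD44+CD326+ cells sorted from it with magnetic beads and grown as spheres in serum-free medium with EGF, bFGF and B27. Total RNA was extracted, and RNA-seq gave 6 libraries. In 3 libraries the cells, labelled WT, had received a negative control siRNA (NC), and in the other 3 the cells, labelled PSCA knockdown, had received siRNA against PSCA, a cell surface protein of the Ly6 family (siPSCA). Both groups were transfected by liposome and harvested after 48 h. The labels list several PSCA siRNA sequences and do not say which of them a library received. The titles of siPSCA 2 and siPSCA 3 carry another number after HCT than the other titles, while their remaining labels read HCT116. No label says that the libraries of a group came from separate cultures, so standard errors and p-values measure only the spread between these libraries, which may be technical.

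Prolyl 4-hydroxylase joins catalytic alpha subunits, encoded by P4HA1, P4HA2 and P4HA3, to beta subunits, encoded by P4HB, which is also the protein disulfide isomerase PDI. It turns prolines of new collagen chains into 4-hydroxyproline, which keeps the triple helix stable at body temperature. The PLOD enzymes hydroxylate lysines in the same chains, SERPINH1 (HSP47) holds the folded procollagen on its way out of the endoplasmic reticulum, and LOX and LOXL2 oxidise lysines outside the cell so that chains can crosslink. The hydroxylases need oxygen, iron, 2-oxoglutarate and ascorbate. In tissue most fibrillar collagen is made by fibroblasts, and carcinoma cells can also express these enzymes. P4HA1, P4HA2, PLOD2 and LOX are known hypoxia-inducible genes, and SERPINH1 is a known heat shock gene.

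The sequences just before the start sites are shown for the 3 genes with the lowest siPSCA to NC ratios among the members above 1 FPKM (fragments scaled to gene length and library size) and for SERPINH1, the member with the highest ratio, because these are the ones the results turn on. RefSeq start sites on GRCh38.p14 were given for 8 of the 10 genes, all but LOXL2 and P4HA3. Each line holds 250 bases before the start, read 5′ to 3′ along the gene. Capitals mark matches, on either strand, of ACGTG and GCGTG, core letters of hypoxia response elements, and of GAANNTTC, a part of heat shock elements. ACGTG on the other strand thus appears as CACGT. GAANNTTC reads the same on both strands, and overlapping matches were counted separately.
P4HA1 (chr10:73096867-73097116, minus strand): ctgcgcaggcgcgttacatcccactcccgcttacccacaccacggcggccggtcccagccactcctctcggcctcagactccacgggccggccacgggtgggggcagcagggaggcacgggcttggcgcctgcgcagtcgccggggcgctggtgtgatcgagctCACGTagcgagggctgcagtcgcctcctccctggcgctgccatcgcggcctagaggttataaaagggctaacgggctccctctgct
PLOD2 (chr3:146161185-146161434, minus strand): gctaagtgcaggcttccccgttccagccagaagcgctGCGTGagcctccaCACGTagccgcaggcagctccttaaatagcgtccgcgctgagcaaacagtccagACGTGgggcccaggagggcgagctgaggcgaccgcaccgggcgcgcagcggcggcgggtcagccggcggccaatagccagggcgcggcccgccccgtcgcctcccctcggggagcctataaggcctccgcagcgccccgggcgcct
P4HA2 (chr5:132227092-132227341, minus strand): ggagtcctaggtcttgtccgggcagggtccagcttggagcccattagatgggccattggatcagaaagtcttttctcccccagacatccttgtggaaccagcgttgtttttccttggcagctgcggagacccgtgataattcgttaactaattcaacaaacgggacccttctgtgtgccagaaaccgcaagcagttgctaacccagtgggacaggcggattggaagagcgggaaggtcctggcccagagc
SERPINH1 (chr11:75562003-75562252, plus strand): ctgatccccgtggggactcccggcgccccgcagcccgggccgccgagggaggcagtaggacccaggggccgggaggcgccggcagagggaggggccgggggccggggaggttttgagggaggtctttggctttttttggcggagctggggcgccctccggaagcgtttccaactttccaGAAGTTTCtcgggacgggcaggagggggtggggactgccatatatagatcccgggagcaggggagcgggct

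P4HA1 held 1 ACGTG, 86 bases before the start, and PLOD2 held 2 ACGTG and 1 GCGTG. Among the members without a printed sequence, the outermost LOX start held 4 ACGTG, PLOD1 held 2 GCGTG and P4HB held 1 GCGTG. Neither motif was present in the P4HA2 and PLOD3 windows. The SERPINH1 window held GAANNTTC 71 bases before the start, and a window at another SERPINH1 start held 1 ACGTG and 2 GCGTG. For background, ACGTG occurred in 18.5% of all 35116 windows, GCGTG in 32.2%, ACGTG or GCGTG in 43.2% and GAANNTTC in 5.78%. The RefSeq start lay 108 bases from the gene start in the deposited annotation for P4HA1, 197 for SERPINH1, 2469 for PLOD2 and 68224 for P4HA2, so the PLOD2 and P4HA2 windows belong to inner starts. These matches describe letters in a window and say nothing about binding.

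The libraries held 16099716 to 17302219 reads on genes, recovered as whole numbers from FPKM and gene length. NC 3 stood apart from the other NC libraries. Its read counts differed from theirs by a chi-square of 14.6 to 18.1 per degree of freedom, against 2.27 between NC 1 and NC 2 and 2.22 to 3.51 among siPSCA libraries. Across 13792 genes, the log2 fold change rose with the GC content of the transcript (Spearman 0.664, and 0.603 without NC 3), in points that share the same libraries. The targeted gene PSCA had only 4, 12 and 15 reads in NC and 9, 9 and 7 in siPSCA, with overlapping groups (exact permutation test, two-sided p = 0.5, smallest possible 0.1), so its messenger RNA did not check the labels at this depth. CD44 lay at 79.2 to 87.5 FPKM in NC and 59.6 to 62.4 in siPSCA, and EPCAM, which encodes CD326, at 94.7 to 123 and 93.3 to 97.3. Of 7 colorectal epithelium markers 5 had a mean of at least 1 FPKM, while CDX1 was listed at 0 and VIL1 was below 1 in every library. Of 10 fibroblast markers 8 were below 1 FPKM in every library and LUM and PDGFRA were at 0. The summed fibroblast markers lay at 4.34 to 6.51 FPKM in NC and 7.11 to 7.51 in siPSCA, and COL1A1 alone lay at 3.35 to 5.62 and 5.95 to 6.51. The groups of sums did not overlap, and their part in the results was not tested. All 4 leukocyte and all 3 endothelial markers were below 1 FPKM in every library.

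The family moved in both directions between the groups. The collagen hydroxylases with the lowest siPSCA values relative to NC were P4HA1, at 11.9% of its NC mean, PLOD2 at 22.7% and P4HA2 at 33.1%. SERPINH1 and PLOD3 were higher in siPSCA, at 161% and 143% of NC. For each of the 10 genes the NC and siPSCA libraries did not overlap, with 8 genes lower and 2 higher in siPSCA. P4HA3 and LOX were too low to be among the genes tested. Among all genes tested, 30.8% had every siPSCA library below every NC library and 33.7% had the opposite order. Of the 8 members above the minimum of 1 FPKM on average, 6 were called lower and 2 higher by limma, beside 24.2% of all genes called lower and 26.6% called higher. Because these values chose the family, the counts are not a test of it and nothing is read from them. In bulk RNA, fewer cells expressing a gene and less RNA per cell cannot be told apart.

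**Figure D1:**
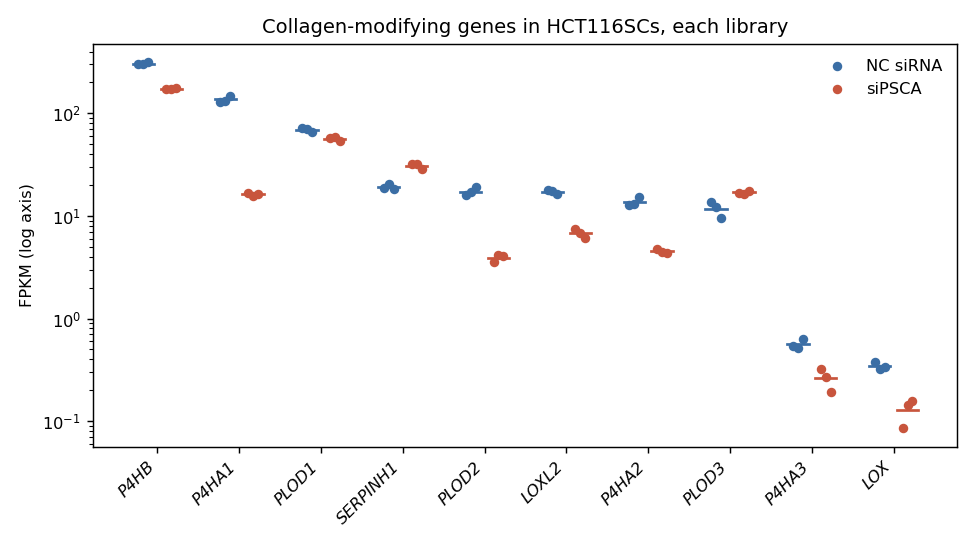
FPKM of the 10 genes in each library on a log axis, with points for single libraries of NC and siPSCA and a bar for the group mean. P4HB is the highest in both groups, and P4HA1 goes from 136 to 16.2 FPKM on average.

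P4HA1 (ENSG00000122884, chr10:73007217-73096974, minus strand) encodes a catalytic alpha subunit, and coordinates here are on GRCh38. It stood at 129, 131 and 149 FPKM in NC 1 to 3 and at 16.6, 15.8 and 16.3 in siPSCA 1 to 3. All siPSCA libraries lay far below all NC libraries, and they differed little among themselves. The means were 136 ± 11.0 and 16.2 ± 0.396 FPKM (SD, n = 3 each), an 8.41-fold difference. On the log2(FPKM + 1) scale the change was -2.99 ± 0.07 (SE from limma), and it stayed between -3.03 and -2.93 when any library was left out. P4HA1 moved from the 98.8th percentile of the genes tested in NC to the 79.6th in siPSCA.

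P4HA2 (ENSG00000072682, chr5:132191838-132295315, minus strand), the second alpha subunit, had 12.9, 13.0 and 15.4 FPKM in NC and 4.77, 4.49 and 4.39 in siPSCA. NC 3 was the highest library, and the siPSCA libraries were close together and below all NC libraries. The means were 13.8 ± 1.39 and 4.55 ± 0.196 FPKM, with a log2 change of -1.41 ± 0.08. P4HA3 (ENSG00000149380, chr11:74235801-74311657, minus strand), the third alpha subunit, was barely expressed. It had 36, 36 and 44 reads in NC and 22, 19 and 14 in siPSCA, that is 0.534, 0.516 and 0.637 against 0.324, 0.267 and 0.192 FPKM. It was below the expression minimum, and its levels were lower in all siPSCA libraries. Without a minimum its log2 change was -0.31 ± 0.08 with a pseudocount of 1, which shrinks changes at this level, and -1.09 from the reads with limma-voom.

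P4HB (ENSG00000185624, chr17:81843159-81860694, minus strand), the beta subunit and a general disulfide isomerase, was the most abundant member. It was at 299.5, 303 and 314 FPKM in NC and at 174, 173 and 177 in siPSCA. The libraries within each group were within a narrow range. The means were 306 ± 7.77 and 175 ± 2.10 FPKM, with a log2 change of -0.80 ± 0.04. P4HB thus stood at 57.1% of its NC level, against 11.9% for P4HA1.

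The alpha subunits therefore shifted against the beta subunit. The summed FPKM of the 3 alpha subunits was 0.477, 0.476 and 0.525 times that of P4HB in NC 1 to 3 and 0.125, 0.119 and 0.118 times in siPSCA 1 to 3. The ratio was below that of every NC library in each siPSCA library. P4HA1 made up 90.6%, 90.6% and 90.3% of the alpha subunit FPKM in NC and 76.5%, 76.8% and 78.1% in siPSCA. P4HA2 made up 9.11% ± 0.161 and 21.6% ± 0.540 (SD, n = 3 each), so its share was larger in siPSCA while its own level was lower. The ratio of P4HA1 to P4HA2 was 9.93 ± 0.192 in NC and 3.57 ± 0.129 in siPSCA. When reads were not divided by gene length, the P4HA1 share was 78.0% in NC and 55.8% in siPSCA, since the P4HA2 gene model is longer. None of these ratios and shares was corrected for GC content. With the GC and length trend removed from each library, the log2 change was -2.81 for P4HA1, -1.41 for P4HA2 and -1.17 for P4HB.

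The lysyl hydroxylases went different ways. PLOD2 (ENSG00000152952, chr3:146069440-146163653, minus strand), which hydroxylates the telopeptide lysines used in crosslinks, had 15.9, 17.0 and 19.1 FPKM in NC and 3.59, 4.11 and 4.06 in siPSCA. Every siPSCA library was below every NC library. The means were 17.3 ± 1.63 and 3.92 ± 0.289 FPKM, a 4.41-fold difference and a log2 change of -1.89 ± 0.08. PLOD1 (ENSG00000083444, chr1:11934205-11975538, plus strand), which hydroxylates helical lysines, had 72.4, 69.9 and 66.2 FPKM in NC and 57.7, 58.3 and 53.2 in siPSCA. The groups were separate but close, with a log2 change of -0.30 ± 0.06. PLOD3 (ENSG00000106397, chr7:101205977-101218420, minus strand), which also carries glycosyltransferase activity, had 13.5, 12.3 and 9.58 FPKM in NC and 16.9, 16.5 and 17.4 in siPSCA. NC 3 was the lowest library, and the siPSCA libraries lay within a narrow range above all NC libraries. Its log2 change was 0.50 ± 0.12, and it was 0.37 without NC 3.

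PLOD1 was the main lysyl hydroxylase in both groups, with 70.5% ± 0.677 of the summed FPKM in NC and 73.0% ± 1.49 in siPSCA (SD, n = 3 each). PLOD2 and PLOD3 changed places in the values as deposited. The ratio of PLOD2 to PLOD3 was 1.17, 1.38 and 1.99 in NC and 0.212, 0.250 and 0.233 in siPSCA. PLOD2 was above PLOD3 in every NC library and below it in every siPSCA library. Its share of the summed FPKM was 17.6% ± 2.31 in NC and 5.08% ± 0.439 in siPSCA, while that of PLOD3 was 11.9% ± 1.64 and 21.9% ± 1.25. These ratios and shares were not corrected for GC content, which was 34.4% for PLOD2 and 61.7% for PLOD3. With the GC and length trend removed from each library, the log2 change was -1.44 for PLOD2 and -0.0067 for PLOD3.

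LOXL2 (ENSG00000134013, chr8:23297189-23425328, minus strand), a secreted lysyl oxidase, had 17.8, 17.5 and 16.2 FPKM in NC and 7.45, 6.84 and 6.10 in siPSCA. The groups were well apart, with means of 17.2 ± 0.847 and 6.80 ± 0.676 FPKM and a log2 change of -1.22 ± 0.08. LOX (ENSG00000113083, chr5:122063195-122078360, minus strand), the founding member of the oxidases, was near the limit of detection. It had 35, 31 and 32 reads in NC and 8, 14 and 16 in siPSCA, or 0.376, 0.321 and 0.335 against 0.0852, 0.142 and 0.158 FPKM. Its siPSCA libraries lay below its NC libraries, at 37.4% of the NC mean. The log2 change was -0.25 ± 0.05 with a pseudocount of 1 and -1.39 with limma-voom on the reads. With the pseudocount of 1 and the GC and length trend removed, it was only -0.046.

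LOXL2 was the most abundant of the 5 lysyl oxidase genes, with 81.0%, 82.4% and 83.5% of their summed FPKM in NC and 62.6%, 59.9% and 56.7% in siPSCA. LOXL1, which is needed for elastic fibres, made up 8.54% ± 1.13 in NC and 22.8% ± 1.71 in siPSCA. The summed FPKM of the 5 genes was 20.9 ± 1.31 and 11.4 ± 0.574. LOX itself was at most 1.73% of the sum in any library. These shares were not corrected for GC content. With the GC and length trend removed from each library, the log2 change went from 0.37 to -0.42 for LOXL1 and from -1.22 to -1.58 for LOXL2.

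SERPINH1 (ENSG00000149257, chr11:75562056-75572783, plus strand), the collagen chaperone HSP47, was the member with the largest upward change. It had 18.7, 20.5 and 18.4 FPKM in NC and 32.2, 31.7 and 28.97 in siPSCA. No NC library reached the lowest siPSCA library. The means were 19.2 ± 1.10 and 31.0 ± 1.77 FPKM, with a log2 change of 0.66 ± 0.07. In NC its range overlapped that of PLOD2, and in siPSCA it lay above P4HA1 in every library.

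**Figure D2:**
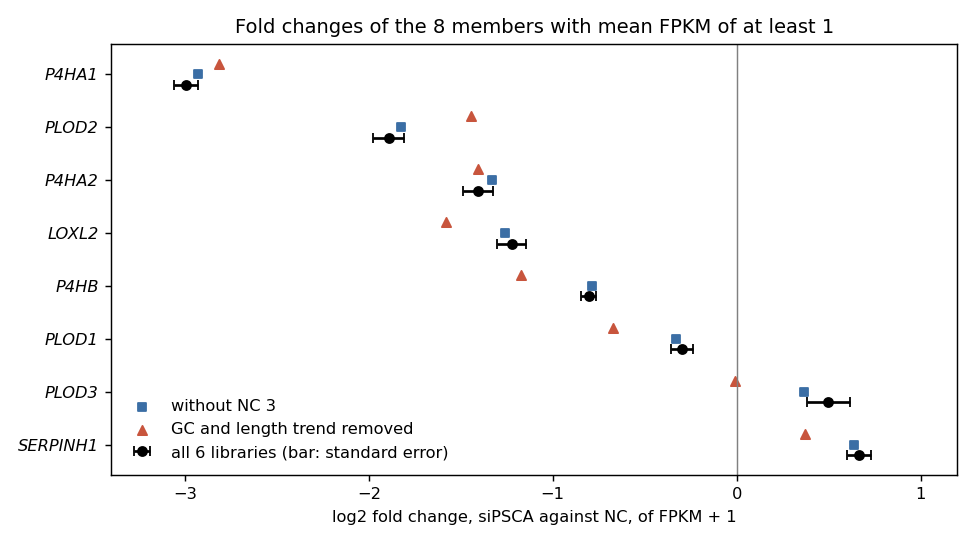
Log2 fold change of the 8 members with a mean of at least 1 FPKM, siPSCA against NC, with the standard error as a bar, as black circles from all libraries, as blue squares from the fit that leaves out NC 3 and as red triangles from values corrected for GC content and length. P4HA1 lies furthest from 0 in each fit, and PLOD3 is at 0.50, 0.37 and -0.0067.

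Ordered by FPKM, the NC libraries ran P4HB, P4HA1, PLOD1, SERPINH1, PLOD2, LOXL2, P4HA2, PLOD3, P4HA3 and LOX. The ranges of SERPINH1 and PLOD2, of PLOD2 and LOXL2, and of P4HA2 and PLOD3 overlapped, and the other neighbours were separate. The siPSCA libraries ran P4HB, PLOD1, SERPINH1, PLOD3, P4HA1, LOXL2, P4HA2, PLOD2, P4HA3 and LOX, and only PLOD3 and P4HA1 overlapped among neighbours. By mean FPKM P4HA1 went from the second to the fifth place, and PLOD2 from the fifth to the eighth.

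GC content moved with the fold changes across all genes and was read beside each member. PLOD2 (34.4% GC) and P4HA1 (40.8%) had transcripts below the median of 48.1%, and P4HA2 was at 49.1%. PLOD1 (58.6%), P4HB (58.4%) and LOXL2 (58.2%) were above the median and also lower in siPSCA. After the GC and length trend was removed from each library, the log2 change was -2.81 for P4HA1, -1.44 for PLOD2, -1.41 for P4HA2, -1.58 for LOXL2, -1.17 for P4HB and -0.67 for PLOD1. SERPINH1 (56.5% GC) had 0.37 and PLOD3 (61.7%) had -0.0067, so the direction of PLOD3 rests on the values as deposited. With siPSCA 1 as the only siPSCA library the changes were -2.96 for P4HA1, -1.99 for PLOD2, -1.35 for P4HA2, -1.10 for LOXL2, -0.81 for P4HB, -0.26 for PLOD1, 0.50 for PLOD3 and 0.72 for SERPINH1.

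Several members share exon bases with a neighbouring gene, and whether reads were counted by strand was not stated. PLOD3 shares 429 bases (7.56% of its exon length) with ZNHIT1 on the opposite strand, P4HB shares 529 bases with an antisense gene listed at 0, P4HA2 shares 548 bases with P4HA2-AS1, which stayed below 1 FPKM, and P4HA3 shares 166 bases with PPME1. LOXL2 shares 120 bases (2.10% of its exon length) with ENTPD4 on the same strand, which counting by strand could not separate, and ENTPD4 had 16.2 to 17.3 FPKM in NC and 14.1 to 15.0 in siPSCA. LOX shares 138 bases with SRFBP1, which had 3.98 to 4.74 FPKM in NC and 3.16 to 3.36 in siPSCA. For LOX and P4HA3, with few reads of their own, the split of shared reads is therefore uncertain.

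The substrates of these enzymes, the 44 collagen chain genes, were mostly at low levels. Only 15 had a mean of at least 1 FPKM, 18 were below 0.1 in every library and 4 had no read. Of the 15 tested, 2 fell, 5 rose and 8 did not pass the test, against 24.2% of all genes tested called lower and 26.6% called higher. They had a median log2 change of 0.25 against 0.01 for all genes tested. COL13A1, a transmembrane collagen, fell (log2 change -0.82 ± 0.15, limma adjusted p = 0.00592), as did COL4A3, a basement membrane chain (-0.44 ± 0.12, limma adjusted p = 0.0245). The COL4A3 call was lost without NC 1 (limma adjusted p = 0.065) and without siPSCA 1 (0.0651). COL18A1, the precursor of endostatin, rose (1.03 ± 0.30, limma adjusted p = 0.0298), from 9.23, 8.18 and 3.49 FPKM in NC to 15.0, 14.4 and 13.7 in siPSCA. COL6A1, a beaded filament chain, rose (0.66 ± 0.15, limma adjusted p = 0.0125), and so did COL12A1, a fibril-associated chain (0.42 ± 0.08, limma adjusted p = 0.00803). NC 3 was far below NC 1 and NC 2 for COL18A1, whose change was 0.66 without it, and the COL18A1 call was lost without any one siPSCA library (limma adjusted p = 0.0697 to 0.0884). After removal of the GC trend COL18A1 (0.33) and COL6A1 (0.07) no longer passed the test, and COL12A1 still did (0.55, limma adjusted p = 0.0012). In that fit 7 chains were called, of which COL12A1 alone was higher. COL13A1 (-1.20), COL11A2 (-0.67), COL7A1 (-0.49), COL9A2 (-0.48), COL4A3 (-0.43) and COL6A2 (-0.40) were lower, and the median of the chains was -0.12. The number of chains called was 3 without siPSCA 1 and 4 without siPSCA 2, and with siPSCA 1 as the only siPSCA library no gene of this list or of the next 3 passed the test. The summed FPKM of all 44 chains was 125, 121 and 83.7 in NC and 152, 152 and 142 in siPSCA. The alpha subunits had 1.14, 1.19 and 1.97 times the FPKM of the chains in NC and 0.142, 0.135 and 0.148 times in siPSCA. These sums and ratios were not corrected for GC content. COL6A1 (63.5% GC) and COL6A2 (66.4% GC) made up 28.2% and 25.4% of the chain FPKM in NC. With the GC and length trend removed from each library, their log2 changes were 0.07 and -0.40.

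Other collagen folding, modification and processing factors were listed with 25 genes, of which 18 were tested, 4 fell, 5 rose and 9 did not pass, counts close to the shares of all genes (24.2% lower, 26.6% higher). The median was 0.15, and it was -0.08 after removal of the GC trend. FKBP14, a prolyl isomerase of the endoplasmic reticulum, fell (log2 change -0.76 ± 0.08, limma adjusted p = 0.00118), with -0.47 after removal of the GC trend. The procollagen export factors MIA3 (-0.53) and MIA2 (-0.49) also fell (limma adjusted p = 0.0108 and 0.00325), but not past the threshold without the GC trend (-0.23 and -0.10). COLGALT1, the galactosyltransferase that acts on the hydroxylysines made by PLOD enzymes, rose (0.57 ± 0.04, limma adjusted p = 0.000668), with 0.21 after removal of the GC trend. BMP1, the procollagen C-proteinase, and P3H3, a prolyl 3-hydroxylase family protein, rose by 0.55 and 0.54 (limma adjusted p = 0.00451 and 0.00595), but did not pass the test without the GC trend (0.09 and 0.02). LOXL1 was at 0.37 (limma adjusted p = 0.0345) and at -0.42 once the GC trend was removed, and its call was lost without NC 2 or any one siPSCA library (limma adjusted p = 0.0538 to 0.114).

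Among 23 disulfide isomerases and their oxidases, the relatives and partners of P4HB, 18 were tested, 10 fell, 5 rose and 3 did not pass, beside 24.2% of all genes called lower and 26.6% called higher. The median was -0.31, and it was -0.25 after removal of the GC trend. ERO1A, the oxidase that recharges PDI, fell most in this list, from 43.3, 43.3 and 51.6 FPKM in NC to 15.1, 15.7 and 15.6 in siPSCA (log2 change -1.51 ± 0.08, limma adjusted p = 0.000233). PDIA6 (-0.94 ± 0.10, limma adjusted p = 0.00143) and the second oxidase ERO1B (-0.94 ± 0.07, limma adjusted p = 0.00063) followed, and all 3 passed the test after the GC trend was removed, ERO1B at -0.60. PDIA6 shares 25.2% of its exon bases with ATP6V1C2 on the opposite strand. TXNDC5 (0.66), TXNDC12 (0.56) and ERP29 (0.40) rose (limma adjusted p = 0.0435, 0.0185 and 0.0105). TXNDC5 shares 60.6% and TXNDC12 36.1% of its exon bases with another gene on the same strand, and TXNDC5 had 0.794 FPKM in NC 3 against 2.03 and 2.07 in the other NC libraries. Their values are uncertain, and TXNDC5 had 0.40 without NC 3 and did not pass the test after removal of the GC trend (0.54). The TXNDC5 call was also lost without any one siPSCA library (limma adjusted p = 0.0897 to 0.124), and the TXNDC12 call without NC 2, siPSCA 1 or siPSCA 2 (limma adjusted p = 0.054 to 0.0675).

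Of 8 oxygen-dependent hydroxylases that act on other proteins, 7 were tested, 4 fell, 2 rose and 1 did not pass, where 24.2% of all genes were called lower and 26.6% higher. The median was -0.15, and it was -0.22 after removal of the GC trend. ASPH, the aspartyl hydroxylase of EGF-like domains, fell (log2 change -0.97 ± 0.06, limma adjusted p = 0.000298). EGLN1 and EGLN3, the prolyl hydroxylases of the hypoxia-inducible factors, fell by 0.91 and 0.89 on the log2 scale (limma adjusted p = 0.000392 and 0.0017). P4HTM, a transmembrane prolyl hydroxylase, and OGFOD1, which hydroxylates a ribosomal protein, rose (0.65 and 0.42, limma adjusted p = 0.0109 and 0.00182). All 5 kept their direction and passed the test after removal of the GC trend, with smaller changes for ASPH (-0.57) and P4HTM (0.26).

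The 5 protein-coding genes whose centred log2(FPKM + 1) values lay nearest to those of P4HA1 over the 6 libraries, among 11079, were BHLHE40 (distance 0.543), C4orf47 (0.742), SLC2A3 (0.992), ENO2 (1.04) and KDM3A (1.13). BHLHE40, a transcriptional repressor, went from 32.2, 33.4 and 32.2 FPKM in NC to 4.68, 4.25 and 4.91 in siPSCA. SLC2A3 encodes a glucose transporter, ENO2 a glycolytic enolase and KDM3A a histone demethylase that also requires oxygen and 2-oxoglutarate. The nearest member was PLOD2 at 1.36, followed by P4HA2 at 1.94 and LOXL2 at 2.19, and the farthest was SERPINH1 at 4.49. These distances describe 6 libraries in 2 groups and were not tested.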

How the data were processed

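RNA-seq of HCT116SCs gave 6 libraries, 3 of NC and 3 of siPSCA, grouped by the labels. The authors deposited 1 table of FPKM per gene for all libraries. The aligner, counter and strand setting were not given in the sources used here, and the submitters' processing notes name GRCh38. All 58735 genes had the start and end of the GENCODE 29 annotation, whose longest transcript gave GC content. FPKM multiplied by gene length gave whole reads for 100% of values (tolerance 0.05 reads). Library totals were 16803235 to 18218661 reads, of which 94.4% to 97.0% fell on genes. The 8 members above the minimum rested on 464 to 28726 reads in each library.

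The FPKM values as deposited were tested with limma 3.58.1 (R 4.3.3) on log2(FPKM + 1), with a trend, for 13796 genes with a mean of at least 1 FPKM, and p-values were adjusted over all of them by the Benjamini-Hochberg method (two-sided, threshold 0.05). Fold changes on this scale understate the change of low genes. Members below the minimum were fitted without it. PSCA was compared by an exact permutation test. Levels of genes were compared per length, and other steps used Python 3.11.15 with pandas 2.3.3, numpy 2.4.6 and scipy 1.17.1, and figures matplotlib 3.10.9. The code was tested on simulated data.

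The members and the 4 lists were chosen with earlier results of these data known. Named genes were all members, PSCA, the markers, up to 3 genes per list and direction with the largest change among those past the threshold, and the 5 genes nearest to P4HA1. LOXL1 was named as part of its family. Alternatives were a pseudocount of 0.1, a minimum of 0.1 FPKM or none, TPM, limma-voom on the recovered reads, removal of a GC and length trend (loess, span 0.3), the replicate number as a block and each library left out. A fit without siPSCA 2 and siPSCA 3 was chosen after seeing the data. No column was left unassigned.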

Additional observations from a re-analysis of the deposited data

How the results depend on the processing

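Under all 14 alternatives the members other than PLOD3 kept their direction. Once the GC and length trend was removed, PLOD3 was at -0.0067 and LOX, fitted without a minimum, was close to 0 at -0.046. The number of genes called was 7001, lay between 4627 (without siPSCA 1) and 7425 when 1 library was left out, and was 41 without siPSCA 2 and siPSCA 3, where the lone siPSCA library was assumed to vary like the NC libraries. That fit called 0 genes of each of the 4 lists. Counts of members are tallies on the values that chose the family and say nothing of its stability: that fit had 2 lower (P4HA1 and PLOD2) and 0 higher. With 1 library left out, the tally was 6 lower and 1 to 2 higher, and PLOD3 was the member outside it, without siPSCA 1. In the same fits the calls were 3 to 9 for the collagen chains (3 without siPSCA 1, 4 without siPSCA 2), 7 to 11 for the folding factors, 13 to 16 for the disulfide isomerase family and 5 to 6 for the other hydroxylases. After removal of the GC trend the tally of higher members was 1 and 5 folding factors were called, and the cause was not tested.

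With reads not divided by gene length, the P4HA1 share of alpha subunits was 78.0% in NC and 55.8% in siPSCA, the ratio of alpha subunits to P4HB was 0.334 and 0.0972, the PLOD2 share was 23.3% and 7.04% and the LOXL2 share was 86.9% and 68.5%, with the same direction as per length. Deviations of same-numbered libraries correlated weakly, at 0.096, 0.013 and 0.134. NC 1 and NC 3 correlated best with the siPSCA library of the same number, and NC 2 with siPSCA 1 (0.036). Values this low do not settle whether the shared replicate numbers mark pairs. With the replicate block 6725 genes were called, with 6 members lower and 2 higher, 6 collagen chains, 10 folding factors, 16 disulfide isomerases and 5 other hydroxylases, and COL4A3 was not called (limma adjusted p = 0.0633). TXNDC5 was not called with a pseudocount of 0.1 or with TPM (limma adjusted p = 0.0614 and 0.052). LOX, P4HA3 and PSCA had fewer than 50 reads in every library, which limits their precision.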
